A study of Sus scrofa with 2 samples.

Results

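The genes described here build the contacts between neighbouring somatic cells of the pig antral follicle. They are the connexins GJA1 and GJC1, the cadherins CDH1 and CDH2, the catenins CTNNB1 and CTNNA1, the scaffold TJP1, the junctional adhesion molecules JAM2 and JAM3, and the surface glycoprotein CD99. The set was chosen by name, and its 10 members make up 10 of the 22342 genes counted in each library. 9 were found by symbol, and TJP1, listed by its Ensembl identifier ENSSSCG00000004854 alone, was named from a reference gene table.

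Somatic cells were released from 2 antral follicles, AF75 and AF76, each more than 7 mm across, and each gave 1 single-cell RNA library on the 10x Genomics platform. Both follicles came from a single Landrace × Yorkshire gilt, 210 days old, whose follicles were grown with pregnant mare serum gonadotropin (PMSG), so both libraries carry the same treatment and there is no untreated group. The labels tell AF75 and AF76 apart only as different follicles, with no replicate library of either, so no test between them was possible and no p-value is given. Unique molecular identifiers (UMIs), each standing for 1 captured RNA molecule, were counted per gene and barcode.

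Barcodes with 2000 to 5000 genes and less than 7% mitochondrial UMIs were kept, which were 9362 of 14289 in AF75 and 7843 of 15548 in AF76. The median kept barcode held 11254.5 UMIs in AF75 and 13902 in AF76, and the kept barcodes summed to 111226504 and 108920601 UMIs. Of the barcode sequences, 56 occurred in both libraries and 18 were kept in both. The granulosa marker INHA stood at 19854 and 23176 CPM (its UMIs scaled to a common library total, as counts-per-million values) and the steroidogenic enzyme CYP11A1 at 1690 and 1679. Of the 8 granulosa markers counted, INHBA (2036 and 523 CPM), NR5A2 (570 and 486 CPM) and GATA4 (68.1 and 49.3 CPM) were also present, CYP19A1 (22.4 and 31.8 CPM) and FSHR (1.80 and 2.16 CPM) were lower, and AMH had 0 and 1 UMI. Of the markers of other cell types, the theca and stroma list had the highest sum, 309.9 and 508 CPM, of which INSL3, a hormone known from theca cells, made up 307 and 496 CPM, while the theca enzyme CYP17A1 had 1.45 and 1.59 CPM and the collagen COL1A1 had 0.207 and 1.48 CPM. The haemoglobin gene HBB had 2.47 and 45.6 CPM and the epithelial gene EPCAM 10.6 and 9.96 CPM. Further lists summed to 49.8 and 56.8 CPM for endothelium, 15.7 and 23.7 CPM for leukocytes and 4.97 and 5.21 CPM for the oocyte. In these too most of the sum came from single genes, EGFL7 with 32.4 and 44.8 CPM, CD74 with 12.2 and 16.0 CPM and GDF9 with 4.95 and 5.17 CPM. The defining endothelial cadherin CDH5 and oocyte gene ZP3 had no UMI, and the leukocyte gene PTPRC had 12 and 28.

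As background, granulosa cells form an epithelium without blood vessels. Gap junctions, channels built from connexins, let ions and small metabolites pass from cell to cell and on towards the oocyte. In adherens junctions the cadherins of adjacent cells bind each other, and the catenins tie them to actin. Tight junction proteins and their adaptors seal or organise the contact zone, and the JAM and CD99 glycoproteins also take part in leukocyte adhesion and passage. Levels below are CPM from the summed UMIs of a gene over the summed UMIs of the same barcodes. A UMI is counted once per captured 3' end, so levels were not divided by gene length, although how well each 3' end is annotated can still set the level of 1 gene against another. Intervals in parentheses are at 95% and cover counting error only, not differences between animals, follicles or preparations.

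The levels of the 10 genes spanned 4 orders of abundance, from CDH2 and GJA1 at the top to CDH1 at the edge of detection. CDH2, encoding N-cadherin, was the most abundant member in both follicles, with 1319.9 CPM (1313–1327) in AF75 and 1403.1 CPM (1396–1410) in AF76. GJA1, encoding connexin 43, came next with 940.2 CPM (934–946) and 697.4 CPM (692–702). CTNNA1 (alpha-catenin) stood at 208 and 209.7 CPM. CTNNB1 (beta-catenin) stood at 190.5 CPM (188–193) and 172.2 CPM (170–175), and CD99 at 178 CPM (176–181) and 184 CPM (181–186), so the order of CTNNB1 and CD99 was opposite in the follicles.

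The same exchange of places was seen further down. JAM2, a junctional adhesion molecule, had a level of 106 CPM (104–108) in AF75, against 81.7 CPM (80.0–83.4) in AF76. TJP1, which encodes the scaffold ZO-1, stood at 77.4 CPM (75.8–79.1) and 88.4 CPM (86.7–90.2). JAM3 had 49.5 and 50.1 CPM. GJC1, encoding connexin 45, had 36.3 and 31.0 CPM. Neighbours in this order had separate counting intervals in each follicle.

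CDH1, encoding E-cadherin, was counted 7 times in AF75 and 15 times in AF76, which is 0.063 and 0.138 CPM. Those UMIs lay in 6 of 9362 barcodes (0.064%, 0.024–0.139) and in 14 of 7843 (0.179%, 0.098–0.299). CDH2 exceeded it by 4 orders of magnitude in both libraries. How many of these UMIs are free RNA was not tested.

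**Figure D1:**
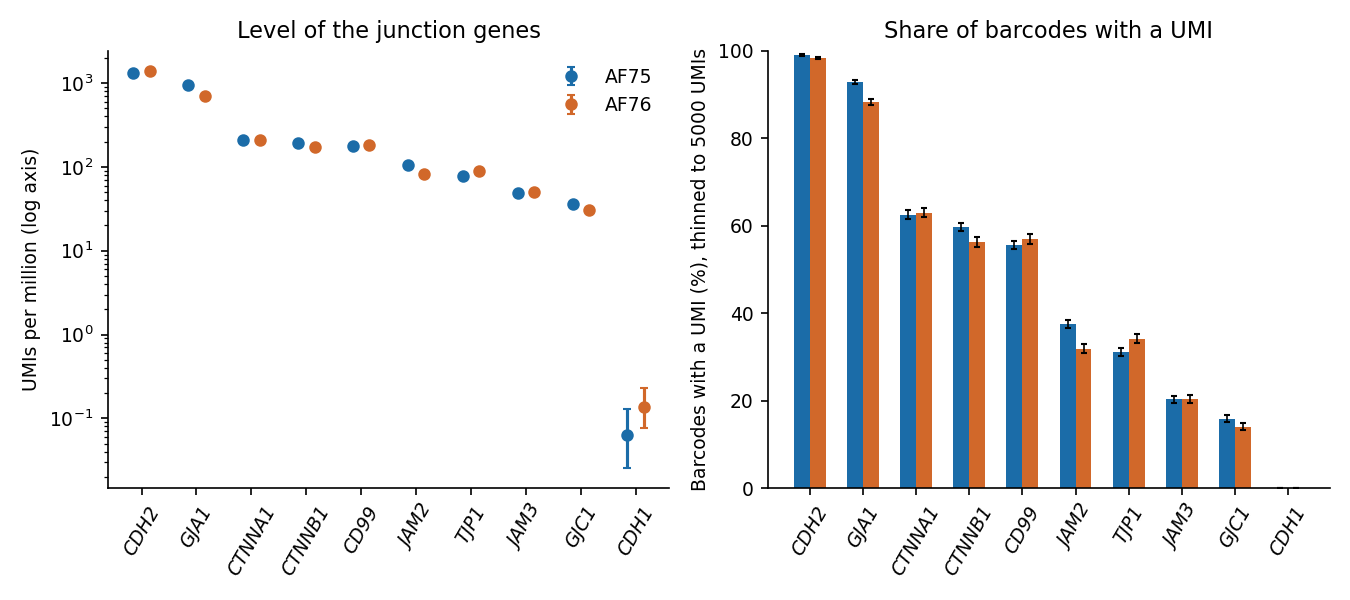
Levels of the 10 junction genes by follicle (left, CPM on a log axis, points with exact Poisson intervals at 95%) and the share of barcodes with at least 1 UMI after each barcode was thinned to 5000 UMIs (right, bars with Clopper-Pearson intervals at 95%). CDH2 and GJA1 lead in both follicles, and CDH1 lies lowest, at 0.063 CPM and 0.138 CPM.

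CDH1 and CDH2 lie on chromosome 6 of Sscrofa11.1, both on the minus strand, CDH1 at chr6:18075487-18155986 and CDH2 at chr6:112396713-112629073 in the RefSeq annotation. As they were the lowest and the highest member, the 250 bases before each annotated gene start are shown, read from the RefSeq genome of that build, 5′ to 3′ on the gene's strand. Capitals mark CAGGTG and its reverse complement CACCTG, an E-box sequence searched on both strands, known as the core site of zinc finger repressors of cadherin genes.
CDH1: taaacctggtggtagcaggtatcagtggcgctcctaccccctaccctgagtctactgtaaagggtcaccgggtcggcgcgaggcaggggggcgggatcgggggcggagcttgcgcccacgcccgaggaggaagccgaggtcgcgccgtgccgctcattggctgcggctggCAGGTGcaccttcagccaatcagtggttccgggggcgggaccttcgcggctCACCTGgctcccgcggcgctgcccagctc
CDH2: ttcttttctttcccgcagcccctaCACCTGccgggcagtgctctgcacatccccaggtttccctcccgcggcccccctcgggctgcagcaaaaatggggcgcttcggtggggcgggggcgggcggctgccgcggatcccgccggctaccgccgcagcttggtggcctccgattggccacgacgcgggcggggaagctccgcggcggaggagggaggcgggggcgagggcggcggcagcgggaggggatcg

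The CDH1 window (chr6:18155987-18156236) held 2 matches, starting 80 and 29 bases before the gene start, and 69.6% of its bases were G or C. The CDH2 window (chr6:112629074-112629323) held 1 match, starting 226 bases before the start, with 74.4% G or C. Among 19569 RefSeq gene starts, 19.5% of windows of this length held the sequence and 2.87% held it 2 or more times, and the median window was 57.6% G or C. A match is a description of the letters and not of binding. Of the factors known to recognise such a site, ZEB2 was counted at 152 and 138 CPM, ZEB1 at 5.93 and 7.75 CPM, SNAI2 at 2.77 and 2.60 CPM and SNAI1 at 0.396 and 0.560 CPM. TWIST1, also looked up, was at 0.863 and 0.817 CPM. These factors were added after the levels of CDH1 and CDH2 were known, and their part in those levels was not tested.

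The other members lie apart from each other in the genome. GJA1 (chr1:40988818-41002129) and TJP1 (chr1:144930387-145195857) are on chromosome 1, CTNNB1 (chr13:25163550-25208314) and JAM2 (chr13:189199789-189275843) on chromosome 13. GJC1 is at chr12:18526060-18560221, CTNNA1 at chr2:140682776-140869828 and JAM3 at chr9:60629245-60738979. For CD99 no position is given, because the RefSeq gene of that symbol is a non-coding model on chromosome Y while the cells came from a female, so the counted gene, ENSSSCG00000039894, cannot be placed by its symbol.

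Most barcodes held RNA of several junction genes at once. CDH2 had a UMI in 99.9% of kept barcodes in AF75 and 99.0% in AF76, and GJA1 in 98.4% and 97.8%. The catenins came next, with CTNNA1 in 87.0% and 89.6% and CTNNB1 in 84.0% and 85.8%. CD99 was found in 80.1% and 84.7%. The scarcer members were found in fewer barcodes, from JAM2 in 61.9% and 60.8% to GJC1 in 31.9% and 31.8%.

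AF76 was the deeper library, so the shares were recomputed after each barcode was thinned to 5000 UMIs, which left out 19 barcodes in AF75 and 105 in AF76. At this common depth CDH2 had a UMI in 99.0% and 98.3% of barcodes, GJA1 in 92.9% and 88.3%, JAM2 in 37.5% and 31.9%, TJP1 in 31.2% and 34.1%, and GJC1 in 15.9% and 14.0%. For CTNNB1 the order turned, from 84.0% against 85.8% to 59.7% (58.7–60.7) against 56.2% (55.1–57.3). Likewise JAM3, at 37.5% against 41.8% before thinning, stood at 20.3% and 20.4% after it. The median thinned barcode held UMIs of 5 of the 10 genes, and 1.26% in AF75 and 1.27% in AF76 held 8 or more.

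Leukocytes, which should hold little N-cadherin or connexin RNA, served as the background for these shares, since free RNA adds UMIs to cells that do not express a gene. A barcode was called leukocyte-like where at least 10 UMIs fell on at least 3 of 8 leukocyte markers, a rule set after values were seen, and 22 deposited barcodes of AF76 met it, with a median of 4663.5 UMIs. In them CDH2 had a UMI in 11 (50%, 28.2–71.8) at 405 CPM, and GJA1 in 10 (45.5%, 24.4–67.8) at 179 CPM. GJC1 had none, JAM2 was in 2 and JAM3 in 1. CD99, which leukocytes themselves carry, was in 17 of them (77.3%, 54.6–92.2) at 325 CPM. The 9 of these that passed the filters had a median of 7526 UMIs, with CDH2 in 7 (77.8%, 39.99–97.2) at 198 CPM (118–313) and GJA1 in 3 (33.3%, 7.49–70.1) at 55.1 CPM (17.9–129). In AF75 only 4 deposited barcodes met the rule, with CDH2 at 117 CPM and GJA1 at 139 CPM, and 1 of them, which passed the filters, held 9 of their 16 CDH2 UMIs and 15 of their 19 GJA1 UMIs. That barcode stood at 1333 CPM for CDH2 (610–2531) and 2222 CPM for GJA1 (1244–3665), not below the level over all kept barcodes. The CDH2 and GJA1 levels over all kept barcodes lay above the leukocyte-like sums of AF76, filtered or not, and above the sum over the 4 barcodes of AF75.

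By the variance of its counts relative to their mean, a measure that rises with level, GJA1 was the most uneven member. With 5000 UMIs per barcode, the variance of GJA1 counts was 3.35 times the mean in AF75 and 3.28 times in AF76, where counts of genes of like level had a median ratio of 1.58 and 1.49. It was above 82.3% and 86.6% of those genes. Before thinning, the 5th and the 95th percentile of GJA1 were 2 and 29 UMIs per barcode in AF75 and 1 and 26 in AF76. CDH2, although more abundant, was more even, with a variance of 1.91 and 2.06 times the mean. JAM2 stood higher against its own peers, at 1.39 and 1.31 against medians of 1.08 and 1.07, above 89.9% and 89.8% of them. JAM3 was above 88.8% and 86.9% of its peers, at 1.18 in both follicles against 1.05 and 1.06. The catenins spread like their peers, with CTNNA1 at 1.11 and 1.10 against 1.10 and 1.12, and CTNNB1 at 1.08 and 1.10 against 1.10 and 1.11.

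The levels also moved with depth. With barcodes split by depth into 4 equal bins, from the shallowest to the deepest bin, GJA1 went from 1042 to 899 CPM in AF75 and from 859 to 658 CPM in AF76. CDH2 stood at 1154 CPM in the shallowest bin of AF76 and between 1419 and 1472 CPM in the others. In AF75 CDH2 went from 1365 to 1284 CPM. The shallowest bin of AF76 had a median of 8249 UMIs. A group of barcodes found in AF76 alone, cluster 2 below, had a median of 6429 UMIs and CDH2 at 403 CPM. The part of depth, and of such groups of cells, in the levels and in their spread was not tested.

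Between the follicles no member that could be compared differed by 1.5-fold. Of the 9 members with at least 200 UMIs in 1 library, 0 were past 1.5-fold either way, against 5.65% of all 10049 genes counted that deeply. The connexin GJA1 had the largest ratio, 0.742 in AF76 relative to AF75 (0.735–0.749), a larger change than 90.8% of genes had. JAM2 followed with 0.768 (0.747–0.789), then GJC1 with 0.854 (0.816–0.895) and CTNNB1 with 0.904 (0.886–0.922).

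TJP1 had the largest ratio in the other direction, 1.14 (1.11–1.18). CDH2 had 1.06 (1.06–1.07) and CD99 had 1.03 (1.01–1.05). For CTNNA1, with 1.01 (0.990–1.03), and JAM3, with 1.01 (0.975–1.05), the interval held 1. CDH1 was too scarce for a comparison, its ratio of 2.19 having an interval from 0.840 to 6.34. The follicles also differed in the cells they held, and fewer cells of a kind and less RNA per cell cannot be told apart in such sums, so the levels were also compared within clusters.

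Both libraries were integrated and divided into 6 clusters, with the junction genes left out of the genes used for clustering. The clusters are called by number. Cluster 0 held 6080 barcodes of AF75 and 5672 of AF76 and had as leading genes TGFB3, ENPP2, LIMCH1 and the cytokine gene IL33. Cluster 1, with 2653 and 1192, was led by ARPP21, SHAS2, ENSSSCG00000024568 and APOD. Cluster 3, with 457 and 121, was led by the cell division genes TOP2A, CDCA8, NDC80 and DIAPH3. Cluster 4, with 172 in each follicle, was led by ALDH1A2, SLC24A1, C12orf75 and SPP1. Cluster 2, with 0 barcodes in AF75 and 678 in AF76, was led by CCL26, CEMIP, CCDC80 and ENSSSCG00000029990. Cluster 5 held 8 leukocyte-like barcodes of AF76 and was too small to describe.

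GJA1 was lower in AF76 within each of the 4 clusters that both follicles held. In cluster 0 its level was 769 CPM for AF75 and 591 CPM for AF76, a ratio of 0.769 (0.759–0.778), and 94.2% of genes changed less there. Cluster 1 gave a ratio of 0.782, cluster 3 one of 0.611 (0.580–0.644), and cluster 4 one of 0.831 (0.778–0.888). In cluster 3 it passed 1.5-fold, as 8.59% of all genes did. The summed cumulus granulosa markers were also lower in AF76 in each of these clusters, from 901 to 518 CPM in cluster 0, 8119 to 1446 CPM in cluster 1, 5257 to 703 CPM in cluster 3 and 1247 to 957 CPM in cluster 4, and their part in the GJA1 ratios was not tested. Of the 6 listed, 5 were in the gene list and 4 had UMIs in AF75.

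JAM2 was lower in AF76 in the 3 of these clusters where it had at least 200 UMIs in 1 follicle. Its ratio was 0.851 (0.820–0.882) in cluster 0. Cluster 1 gave 0.604 (0.571–0.638), and 0.508 (0.422–0.608) was found for cluster 3. In cluster 4 it had 131 and 119 UMIs, too few for the comparison. Of the members, JAM2 and GJC1 passed 1.5-fold in cluster 1, where 12.5% of all genes did. GJC1 had a ratio of 0.662 (0.602–0.727) in that cluster, which stayed past 1.5-fold in 3 of 6 alternatives, and one of 0.987 (0.927–1.05) in cluster 0. The marker levels of cluster 1 were not alike in the follicles. Besides the cumulus markers, the summed mural granulosa markers of AF75 and AF76 stood there at 1329 and 4184 CPM. That sum was higher in AF76 in the other shared clusters too. It was 4328 and 6977 CPM in cluster 0, 1714 and 3976 CPM in cluster 3 and 2567 and 3735 CPM in cluster 4. Over all kept barcodes AREG made up 2776 and 5321 CPM of the sum's 3326 and 6104 CPM. The part of these markers in the cluster 1 ratios was not tested. In cluster 0, where 1.85% of all genes passed, no member did, nor in cluster 4, where 1.72% did.

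N-cadherin differed the other way in the 4 shared clusters, and by less. CDH2 had a ratio of 1.04 (1.03–1.05) in cluster 0 and 1.23 (1.21–1.25) in cluster 1, while cluster 3 gave 1.20 (1.15–1.25) and cluster 4 gave 1.06 (1.00–1.12). TJP1, higher in AF76 over all barcodes, had a ratio of 1.01 (0.980–1.05) in cluster 0, 1.22 (1.14–1.31) in cluster 1 and 1.15 (0.966–1.37) in cluster 3. CTNNB1 was 0.846 (0.826–0.866) in cluster 0 and 0.992 (0.947–1.04) in cluster 1.

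**Figure D2:**
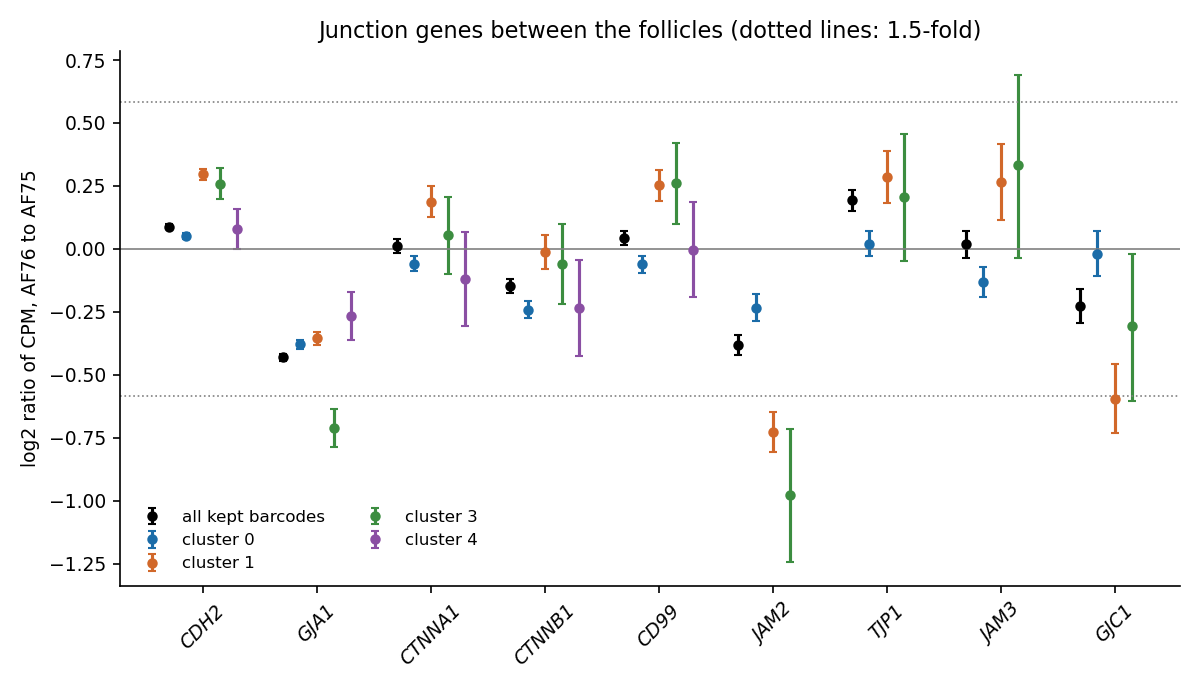
The log2 ratio of CPM in AF76 to that in AF75 for 9 junction genes, over all kept barcodes and within each cluster that both follicles held, with exact conditional intervals at 95% and dotted lines at 1.5-fold. GJA1 lies below 0 and CDH2 above 0 in every set of barcodes shown, and the widest interval is that of JAM3 in cluster 3. In cluster 4 the genes GJC1, TJP1, JAM2 and JAM3 are left out, as each had fewer than 200 UMIs in each follicle.

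The clusters were also compared with each other within a follicle. Against cluster 0, 4 pairs of gene and cluster were past 1.5-fold in the same direction in both follicles. GJA1 was higher in cluster 1, at 1290 CPM against 769 CPM in AF75 (1.68-fold, 1.66–1.70) and 1008 CPM against 591 CPM in AF76 (1.71-fold, 1.68–1.74). JAM3 was lower in cluster 1, with ratios of 0.492 (0.457–0.529) and 0.648 (0.595–0.704), but in AF76 it was no longer past 1.5-fold with 20 components or with junction genes kept for clustering, its log2 ratio going from −0.63 to −0.38 and −0.49. In cluster 1, 3.94% of all genes were past 1.5-fold the same way in both follicles.

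In cluster 3, led by cell division genes, GJC1 was 2.56-fold (2.32–2.83) and 2.10-fold (1.73–2.52) the level of cluster 0, with 68.3 against 26.7 CPM in AF75 and 55.2 against 26.3 CPM in AF76. The share of all genes past 1.5-fold in both follicles was 5.96% there. Cluster 4 held the least JAM3, with 21.0 CPM against 60.2 CPM in AF75 (0.350-fold, 0.252–0.473) and 18.1 against 55.0 CPM in AF76 (0.329-fold, 0.239–0.443), where 4.58% of all genes passed. These JAM3 levels rest on 42 and 44 UMIs.

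Some differences passed 1.5-fold in AF75 alone, where the clusters stood further apart. Past that fold, for cluster 1 against cluster 0, were 18.7% of all genes in AF75 and 6.04% in AF76. GJC1 was 1.97-fold and JAM2 1.97-fold higher in cluster 1 of AF75, against 1.32-fold and 1.40-fold in AF76. GJA1 was 1.61-fold higher in cluster 3 of AF75 and 1.28-fold in AF76, where 18% and 9.42% of all genes were past 1.5-fold, and JAM3 had ratios of 0.527 and 0.726 there. Cumulus granulosa markers moved with these, their summed level being 8119 CPM in cluster 1 against 901 CPM in cluster 0 of AF75, and 1446 against 518 CPM in AF76. Their part in the result was not tested.

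The catenins were not past 1.5-fold of cluster 0 in clusters 1, 3 and 4 of either follicle. CTNNA1 stood between 182 and 225 CPM, and CTNNB1 between 164 and 224 CPM, over clusters 0, 1, 3 and 4 of both follicles. CDH2 was below its cluster 0 level in each of clusters 1, 3 and 4, with ratios from 0.766 in cluster 3 of AF75 to 0.960 in cluster 1 of AF76. CD99 varied from 164 to 214 CPM.

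**Figure D3:**
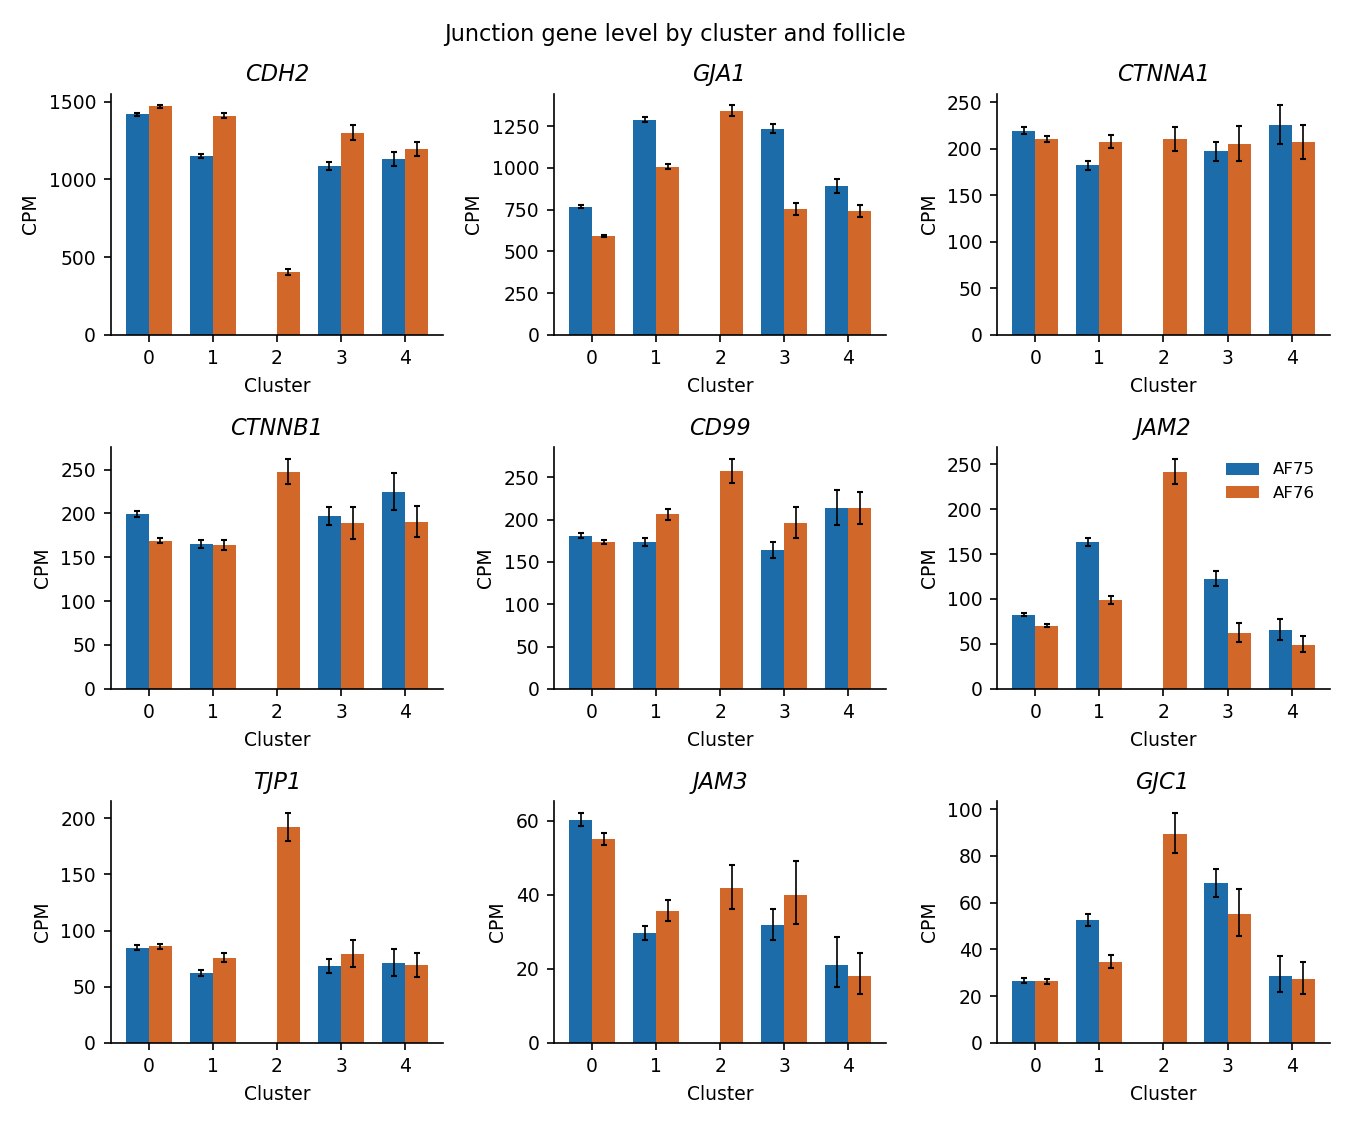
CPM of 9 junction genes in clusters 0 to 4 by follicle, with exact Poisson intervals at 95%, each panel starting at 0. Cluster 2 held barcodes of AF76 alone, with CDH2 at 403 CPM and GJA1 at 1344 CPM, while JAM3 is lowest in cluster 4 of both follicles.

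In cluster 2 of AF76, 5 of 9 members were past 1.5-fold of their cluster 0 level, but so were 48.6% of the 7040 genes compared in this cluster, so the count is near the background. CDH2 was at 403 CPM (385–421) against 1470 CPM in cluster 0 of the same follicle, a ratio of 0.274 (0.262–0.286). GJA1 was at 1344 CPM (1311–1377), 2.27-fold (2.22–2.33) the level of cluster 0. GJC1 stood at 89.5 CPM, 3.40-fold higher (3.06–3.77), JAM2 at 242 CPM, 3.44-fold higher (3.22–3.66), and TJP1 at 192 CPM, 2.23-fold higher (2.08–2.39).

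CD99 with 1.48 (1.40–1.57) and CTNNB1 with 1.47 (1.38–1.56) came close to 1.5-fold. Their log2 ratios were 0.566 and 0.554, where the median over all 7040 genes compared was itself 0.256. The ratios of cluster 2 were not recomputed with that median set to 0. CTNNA1 had a ratio of 0.997 (0.935–1.06) and JAM3 of 0.759 (0.655–0.874). The cluster rests on 1 library and a median of 6429 UMIs per barcode, against 14244 in cluster 0. Its granulosa markers summed to 5176 CPM against 27257 CPM in cluster 0. The smooth muscle genes MYH11 (103 CPM) and ACTA2 (61.7 CPM) ranked 6 and 9 among its 10 leading genes. The theca and stroma list, which holds ACTA2 but was mostly INSL3 over all kept barcodes, summed to 147 CPM against 564 CPM in cluster 0. The part of these in the junction levels was not tested.

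A wider list of 117 junction genes placed the members among their families. In cluster 2, 24 listed genes that are not members had at least 50 expected UMIs, of which 10 were higher and 8 lower past 1.5-fold than in cluster 0, as were 32.8% and 15.8% of all genes. That limit was taken at the level of both clusters pooled. Taken at the level of cluster 0 alone, as added after seeing the data, 9 of 23 were higher and 8 lower, as were 31.6% and 16.1% of all genes. The gene lost was CLDN11, a claudin known from Sertoli cell and myelin barriers, which met the limit only through cluster 2 and so had to differ. It had 1437 UMIs there, or 299.7 CPM, against 6.56 CPM in cluster 0, a ratio of 45.7 (41.4–50.5) given as a description. The genes named next were picked after their values were seen. CXADR, an adhesion receptor of tight junctions, was 8.38-fold higher (7.63–9.20).

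The linker proteins VCL (vinculin) and JUP (plakoglobin) were 3.67-fold and 2.88-fold higher, and the desmosomal cadherin DSG2 was 3.22-fold higher. Other listed genes were lower in cluster 2. The integrin ITGA2 was at 0.0606 of its cluster 0 level. The channel gene PANX1 was at 0.239 of it, while the connexins GJA1 and GJC1 were higher.

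**Figure D4:**
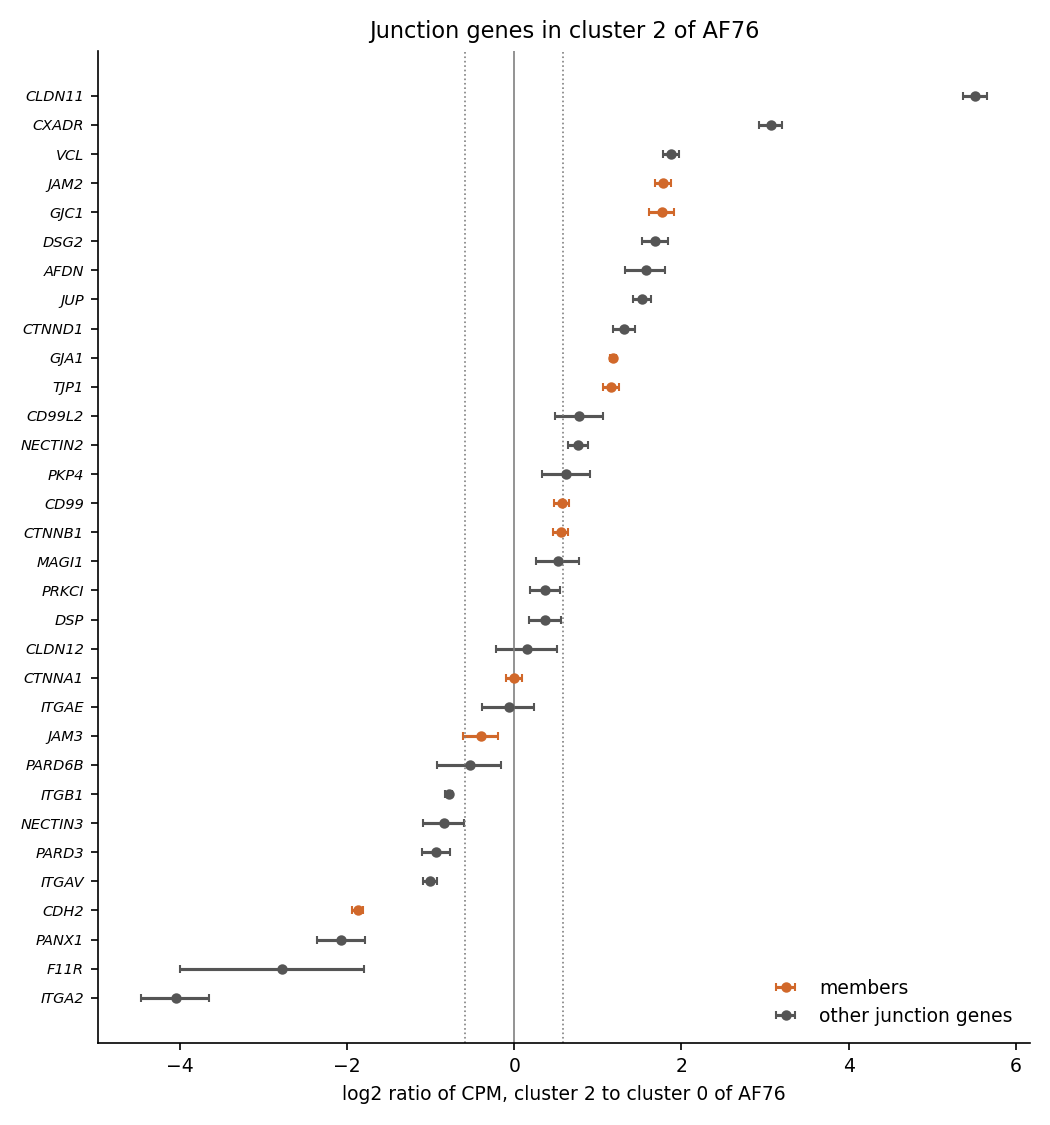
The log2 ratio of CPM in cluster 2 to that in cluster 0 of AF76 for junction genes with at least 50 expected UMIs, with exact conditional intervals at 95% and dotted lines at 1.5-fold. CLDN11, which met the limit only through cluster 2, is the highest at 45.7-fold, JAM2 and GJC1 lead the members, and CDH2 is the lowest member at 0.274.

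Over all kept barcodes, 45 of the 117 listed genes had at least 200 UMIs in 1 follicle, 43 had fewer, 22 had none and 7 were not in the gene list. Of the 45, 1 was higher and 3 were lower past 1.5-fold in AF76, where 1.80% of all genes were higher and 3.85% lower. PATJ, a tight junction polarity scaffold, was the higher one at 2.36 against 4.36 CPM (1.85-fold). CTNND2 (0.446), NECTIN1 (0.463) and MARVELD2 (0.618) were the lower ones, of which MARVELD2 was not past 1.5-fold after thinning, by the mean of per-barcode CPM or with all deposited barcodes. Within cluster 0, a comparison added after seeing the data, none of the 4 was past 1.5-fold. PATJ stood there at 2.90 and 3.03 CPM (1.04-fold, 0.864–1.26). The cluster 0 ratios of CTNND2, NECTIN1 and MARVELD2 were 0.820 (0.709–0.948), 0.735 (0.653–0.828) and 0.723 (0.630–0.829). Cluster 1, also looked up after seeing the data, held wider gaps for these 3 genes. Their CPM in it, AF75 first, were 19.3 and 4.45 for CTNND2, 31.9 and 8.50 for NECTIN1, 29.3 and 8.73 for MARVELD2. PATJ, with 41 and 65 UMIs in cluster 1, was too scarce for the comparison. Of the 44 listed genes compared in cluster 0, CLDN11 (0.592) and the desmosome gene PKP2 (0.654) were lower past 1.5-fold and 0 were higher, where 1.49% of all genes were lower and 0.361% higher. Over all kept barcodes CLDN11 went the other way, with a ratio of 1.26 (1.19–1.34). The median log2 ratio was −0.05 over the 45 genes and −0.002 over all genes.

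The most abundant listed genes outside the set were mostly integrins. ITGB1, the common beta chain, had 1644 and 2040 CPM, more than CDH2. ITGAV had 593 and 531 CPM and ITGA2 139 and 160 CPM. The channel gene PANX1 had 119 and 91.0 CPM. Of the connexins, GJA4, a connexin known from the oocyte side of follicular gap junctions, had 7 and 1 UMIs and GJA5 142 and 60, so GJA1 and GJC1 were the connexins found in quantity.

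Across the kept barcodes of 1 library the members' correlations were weak. Pearson's r was taken on log UMIs per 10000 within each follicle as a description, since the cells of a library share its preparation and each value rests on its depth. Over the 45 pairs, r ran from −0.108 to 0.113 in AF75, with a median of 0.005, and from −0.197 to 0.114 in AF76, with a median of 0.014. No pair reached 0.2 in both follicles over the kept barcodes. With barcodes of 500 to 6000 genes 4 pairs did, and with all deposited barcodes 5 did, the correlation of GJA1 with CDH2 going from 0.071 and −0.013 to 0.357 and 0.351 in the former.

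For 2 pairs not found in nearly every barcode, the joint presence of UMIs was set beside the product of their separate shares. JAM2 and JAM3 were together in 7.32% of thinned barcodes in AF75 and 6.36% in AF76, against products of 7.63% and 6.51%. For CTNNB1 and CTNNA1 the values were 38.2% against 37.4% in AF75 and 35.4% against 35.4% in AF76.

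Within cluster 0, GJA1 and CDH2 had the highest correlation among the pairs in both follicles, 0.186 over 6080 barcodes in AF75 and 0.190 over 5672 in AF76. With barcodes thinned to 5000 UMIs it was 0.119 and 0.137. Thinned cluster 0 barcodes were also ranked by GJA1 and split into 4 equal bins. In AF75 the bin with the fewest GJA1 UMIs had 6.59 ± 3.42 CDH2 UMIs (SD, 1517 barcodes), and the bin with the most had 7.78 ± 3.74. In AF76 these were 6.79 ± 3.50 and 8.11 ± 3.84 (1416 barcodes each). The difference was smaller than the spread between barcodes. CDH2 and JAM2 went the other way, with −0.108 and −0.197 over all barcodes but −0.014 and 0.001 within cluster 0.

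**Figure D5:**
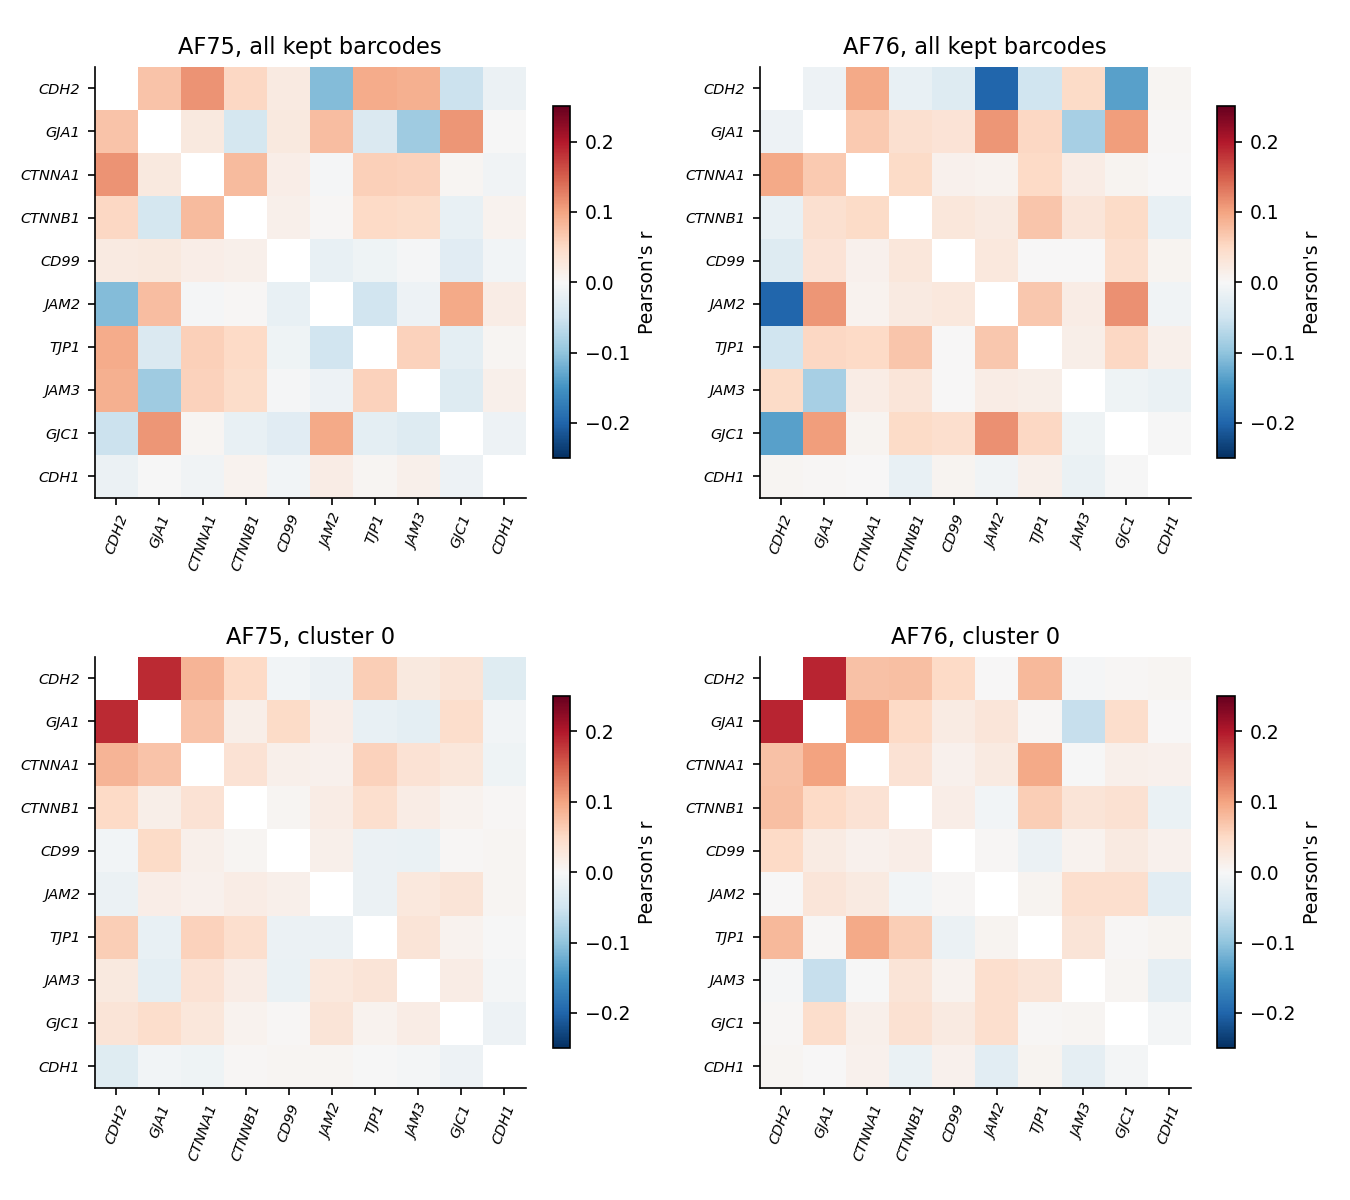
Pearson's r across barcodes for each pair of the 10 junction genes in AF75 (left) and AF76 (right), over all kept barcodes (top) and within cluster 0 (bottom), on a colour scale from −0.25 (blue) to 0.25 (red). The strongest colours are CDH2 with JAM2 in AF76 at −0.197 over all barcodes, and GJA1 with CDH2 within cluster 0 at 0.186 in AF75 and 0.190 in AF76.

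The genes most like each member were sought among 5532 genes with at least 2000 UMIs in both follicles, by the lower of both correlations. CDH2 varied most like SERPINE2, a protease inhibitor (0.309 in AF75 and 0.515 in AF76), AMIGO2 (0.300 and 0.522) and MAN1A1 (0.282 and 0.332). GJA1 varied most like the sphingosine phosphate receptor S1PR1 (0.320 and 0.293), the transcription factor SOX4 (0.286 and 0.291) and the matrix proteoglycan VCAN (0.388 and 0.280). S1PR1 also came first for GJC1 (0.179 and 0.178) and JAM2 (0.258 and 0.239). STMN1 came next for both, followed by PTMA for GJC1 and by VCAN for JAM2.

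For the other members the likeness was weak. CD99 was nearest to VIM (0.226 and 0.194), S100A11 and S100A6, and JAM3 to MAP1LC3A, HADH and IL33, at 0.125 or above in each follicle. TJP1 was nearest to UTRN, DST and GOLGB1, CTNNA1 to EHBP1, RTN4 and TP53BP2, and CTNNB1 to SERINC1, DYNC1LI2 and DST, the highest of these lower values being 0.141. CDH1, with 7 and 15 UMIs in all, reached 0.032 at most, with DHX16, TMEM129 and EFTUD2.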

How the data were processed

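The deposited files hold, for each follicle, a matrix of counts: whole UMIs per gene and barcode, which the authors obtained from CellRanger 6.0.2 with Sscrofa11.1 as the genome, and deposited without further filtering or normalization. The study also removed doublets. Here none were removed in the main analysis, and removal of the 6.9% of barcodes with the highest Scrublet score (scanpy 1.11.5) was an alternative.

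Counts were summed over the barcodes kept and divided by the total to give CPM, with exact Poisson, Clopper-Pearson or conditional ratio intervals at 95% (scipy 1.17.1, numpy 2.4.6, pandas 2.3.3, Python 3.11.15). Kept barcodes held 4148 to 32340 UMIs in AF75 and 3487 to 32958 in AF76, and 3 UMIs over a library stand for 0.0270 and 0.0275 CPM. Ratios between follicles were compared where a gene had at least 200 UMIs in 1 follicle, or, between clusters, where at least 50 UMIs were expected in the smaller cluster at the pooled level, a limit set after seeing the data. The calculation was tested on simulated data.

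The libraries were integrated by anchors over 2000 variable genes and clustered on 40 components at the lowest resolution that gave 6 clusters, 0.22 (in R 4.3.3 with Seurat 5.3.0, Matrix 1.6.5 and SeuratObject 5.2.0). Genes named are the 10 members, the 5 most abundant other genes of the wider list and those past 1.5-fold, the 3 genes most like each member, and the 4 leading genes per cluster at 50 CPM or more. 1 gene that this rule names is not reported here by name, though the counts over the wider list include it. The E-box factors, the leukocyte rule and the other genes of cluster 2 were added after values were seen. The members and lists were chosen with earlier results of these data known. With 1 library per follicle, no test was made.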

Additional observations from a re-analysis of the deposited data

Results flagged for a closer look

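In clusters 1 and 3, CD99 differed from cluster 0 in opposite directions in the 2 follicles, while in cluster 4 it was higher in both, at 1.18 (1.07–1.30) in AF75 and 1.23 (1.12–1.34) in AF76. Its ratio of cluster 1 to cluster 0 was 0.956 (0.925–0.987) in AF75 and 1.19 (1.15–1.23) in AF76. The ratio of cluster 3 to cluster 0 was 0.905 (0.853–0.960) in AF75 and 1.13 (1.03–1.24) in AF76. None of these ratios was past 1.5-fold. Over all genes, the median absolute log2 ratio of cluster 1 to cluster 0 was 0.233 in AF75 and 0.134 in AF76. That of cluster 3 was 0.239 and 0.192. Each follicle is 1 library, so the difference between them was not tested, and the intervals cover counting error only.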

How the results depend on the processing

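No paired analysis was possible because each follicle is 1 library. The count of members past 1.5-fold between the follicles stayed at 0 under the 10 alternatives run over all kept barcodes and the 8 within cluster 0. The 6 alternatives within clusters 1 and 3, and for cluster 2 against cluster 0, were added after seeing the data: GJA1 in cluster 3 (0.598 to 0.639) and JAM2 in clusters 1 (0.541 to 0.617) and 3 (0.496 to 0.603) stayed past 1.5-fold, as did the 5 members and 7 other named genes of cluster 2, while GJC1 in cluster 1 did in 3 of 6 (0.648 to 0.675). The wider list had 2 genes higher past 1.5-fold in AF76, in place of 1, with barcodes of 500 to 6000 genes, with all deposited barcodes or with the mean of per-barcode CPM, and 3 after thinning. CLDN11 was among the genes gained in each of these settings. The lower count, 3, became 4 with the first and second of these settings and 2 with the mean of per-barcode CPM or thinning. In cluster 0 alone, added after seeing the data, they were 0 higher and 2 lower. In cluster 1 the follicles stood further apart for CTNND2, NECTIN1 and MARVELD2, each lower in AF76 there. Of the 4 gene and cluster pairs, 2 were counted after thinning to 5000 UMIs, as GJC1 in cluster 3 and JAM3 in cluster 4 then fell under 50 expected UMIs, and 3 with 20 components or with junction genes kept for clustering, where JAM3 in cluster 1 was lost. Pairs with r of at least 0.2 in both follicles numbered 4 with barcodes of 500 to 6000 genes and 5 with all deposited barcodes, in place of 0, GJA1 with CDH2 reaching 0.357 in AF75 and 0.351 in AF76 in the former. The cause was not tested. Without the clusters of AF76 alone, chosen after seeing the data, the log2 ratio went from −0.38 to −0.52 for JAM2, from −0.23 to −0.36 for GJC1, from −0.43 to −0.49 for GJA1 and from 0.19 to 0.11 for TJP1. Depth limits CDH1 and the small clusters, and 2 follicles of 1 animal limit the rest.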
